A study of Mus musculus with 74 samples.

Results

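Mouse ES cells that had been kept without the transcription factor Nanog were compared with wild-type ES cells by RNA-seq. The comparison used 5 of the 35 RNA-seq libraries in the tables, out of 74 samples in the series, and its members were chosen by their labels alone. The Nanog-null group consisted of 2 libraries of 44iN cells in long-term culture without Dox (44iN -Dox LT). In 44iN cells the endogenous Nanog gene is inactivated and a Nanog transgene responds to doxycycline (Dox), a drug that switches such transgenes on. The wild-type group consisted of 3 libraries of Tg2a cells in serum and LIF (Tg2a FCS). Both groups derive from E14Tg2a ES cells and were grown on gelatine in medium with 10% foetal calf serum and LIF at 10 ng/ml, and the long-term cells were also under G418 selection. The same 44iN line with its transgene on (44iN +Dox, 2 libraries, Dox at 1 µg/ml) and 24 h after Dox removal (44iN -Dox 24h, 2 libraries) served for reference. Another reference was SunTag Nanog cells in LIF at 10 ng/ml without Dox (3 libraries, from clones C1 and C2). These E14Tg2a derivatives carry the rtTA activator, a Dox-inducible dCas9 and VP64 system and a guide RNA for the Nanog promoter. Without Dox the system was not induced. The length of the long-term culture is not given in the sources used here. Because 44iN is 1 line, loss of Nanog and a difference between lines cannot be told apart in the comparison with Tg2a. No source says that replicates came from separate cultures, so p-values measure only the spread between these libraries.

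Nanog is a homeodomain protein that works with Oct4 (Pou5f1), Sox2 and Esrrb to keep ES cells self-renewing, and it is best known for making this independent of LIF when it is in excess. LIF is a cytokine that signals through its receptor and Stat3 to genes such as Klf4 and Tfcp2l1. ES cells in serum fluctuate between a naive state, rich in factors such as Nanog, Esrrb, Klf4 and Prdm14, and a state closer to the formative epiblast, marked by Otx2 and the de novo DNA methyltransferases. ES cells can be kept without Nanog under LIF, although they differentiate more readily.

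The libraries held 47233398 to 92244655 estimated counts in these 5 samples, and 12624297 to 37974444 in the 44iN libraries with Dox and at 24 h. Tg2a replicate 3 stood apart: its deviation from the Tg2a mean correlated with exon GC content over genes (r = 0.67, against -0.58 and -0.27 for the other Tg2a libraries, and -0.13 and 0.13 for the long-term libraries). Across 14895 genes the log2 fold change between the groups had a Spearman correlation of -0.23 with exon GC content. The number of calls over all genes is therefore also given without that library and with a GC correction. These correlations are over genes, which are not independent replicates. Mitochondrial genes took 6.84% of the counts in each long-term library and 7.59% to 9.57% in the Tg2a libraries.

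The Nanog transcript checked the labels. Nanog, at chr6:122657507-122664651 of mm9, was read at 276 and 228 normalised counts (estimated counts divided by a library's size factor) in the long-term libraries. The Tg2a libraries held 19460, 20261 and 19420. The groups were far apart, and the log2 fold change was -6.37 (SE 0.21, adjusted p = 1.02e-05). In the same line with Dox, Nanog stood at 13366 and 18394, and 24 h after Dox removal at 706 and 739, so the long-term cells held the lowest levels of the 4 groups. Reads at this symbol may come from the transgene or from what is left of the endogenous gene, which the table does not separate.

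The ES cell identity of the long-term cells was checked against the markers Pou5f1, Sox2, Zfp42, Sall4 and Esrrb. Pou5f1, which encodes Oct4, was at 10159 and 11293 normalised counts in long-term cells and at 9134, 8862 and 19043 in Tg2a cells, so the groups overlapped (log2 fold change -0.27, SE 0.31, adjusted p = 0.618). SunTag cells in LIF without Dox, another ES cell control with Nanog, held 22107, 38045 and 37806, more than the long-term cells (log2 fold change -1.62, adjusted p = 0.0162). Sox2 was at 8003 and 10546 against 12521, 13657 and 11282, a difference of -0.51 (SE 0.18) that did not pass the test (adjusted p = 0.119). Zfp42, also called Rex1 and a classical marker of undifferentiated cells, was at 12811 and 14636 against 20566, 17768 and 20672 (log2 fold change -0.60, SE 0.16, adjusted p = 0.053). The groups did not overlap for Zfp42, and the difference sat at the border of the threshold. Sall4 was at 6706 and 7214 against 5254, 5348 and 5758 (log2 fold change 0.27, adjusted p = 0.236). Transcripts of Pou5f1, Sox2, Zfp42 and Sall4 thus remained abundant in every long-term library. Esrrb was lower than in Tg2a cells, with a log2 fold change of -1.62 that passed the test (values below).

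With edgeR's quasi-likelihood test, 1286 of 14937 tested genes passed a Benjamini-Hochberg adjusted p of 0.05, which is 8.61% of those tested. Of these, 501 were higher (3.35%) and 785 lower (5.26%) in long-term cells. All 1286 had groups that did not overlap, as had 48.3% of all genes tested, and the median log2 fold change of all tested genes was -0.05. The count depended on Tg2a replicate 3: without it 2629 genes were called (17.6%). A correction for exon GC content called 3397 of 14895 genes (22.8%), of which 1670 were higher and 1727 lower, so the excess of lower genes shrank. DESeq2 called 2294 (15.4%). In simulated data with 200 genes changed by 1 on the log2 scale, 28.7% of its calls were false, against 13.4% with edgeR. These shares depend on how many genes change, so they do not measure false calls in the data. Leaving out long-term replicate 1, long-term replicate 2 or Tg2a replicate 2 left 19, 78 and 273 calls, so the number of calls rested on each of these libraries. With 2 libraries against 3, an exact permutation test of a single gene cannot go below 0.1, so single values rest on the model fitted across all genes.

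Genes were named if their higher group averaged at least 100 normalised counts, the groups did not overlap and the symbol was not a Gm, Rik, clone or pseudogene name. Of the 488 called genes of this kind that were lower in long-term cells, Nanog had the largest change, followed by Inhbb, Mras, Myo1f, Prmt8, Col1a1, Hist2h3c1, Emp1, Klhdc7a and Serpinb1a. Inhbb, at chr1:121312042-121318825, encodes the beta B subunit of activins and inhibins. It was read at 91.6 and 59.9 normalised counts in long-term cells against 1123, 1728 and 2327 in Tg2a cells (log2 fold change -4.57, SE 0.37, adjusted p = 0.00136). Mras, a small GTPase of the Ras family, was at 78.6 and 42.9 against 1076, 1179 and 1762 (log2 fold change -4.52, SE 0.35, adjusted p = 0.00134). For both, every Tg2a library exceeded both long-term libraries by more than an order of magnitude. Emp1, an epithelial membrane protein, was at 214 and 144 against 1950, 2473 and 2497 (log2 fold change -3.76, SE 0.24, adjusted p = 0.000506). Prmt8, an arginine methyltransferase anchored to membranes, was at 21.6 and 23.2 against 285, 405 and 421 (log2 fold change -4.13). Myo1f, an unconventional myosin, fell by 4.31 and Serpinb1a, a serine protease inhibitor, fell by 3.48 on the same scale. For Col1a1, a collagen chain of fibroblasts and bone, Tg2a replicate 1 held 21.2 counts and the other Tg2a libraries 195 and 213, against 7.67 and 10.9 in long-term cells.

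In the other direction, 311 genes met the same conditions. Those with the largest changes were Aox3, Mgat4c, Pramel7, Olfr307, Mmd2, Tdpoz4, Usp9y, Glod5, Tgtp1 and Cdh9. Genes left out for their symbol had larger changes, such as 1500017E21Rik at 284 and 330 normalised counts against 0.531, 0 and 0. Pramel7, of the Prame family of germline and early embryo genes, was at 1720 and 1117 normalised counts in long-term cells against 165, 97.3 and 135 in Tg2a cells (log2 fold change 3.34, SE 0.27, adjusted p = 0.00136). Aox3, an aldehyde oxidase, was at 164 and 66.7 against 6.9, 6.37 and 9.54 (log2 fold change 3.82, SE 0.45). The 2 long-term libraries differed from each other by more than the Tg2a libraries did for this gene, and both lay above all of them. Glod5 rose by 2.67, with 681 and 844 against 159, 102 and 79.9 normalised counts. Cdh9, a classical type II cadherin, rose by 2.65 (SE 0.32), from 65.9, 49.8 and 34.9 in Tg2a cells to 362 and 300. Tgtp1, an interferon-inducible GTPase of T cells, rose by 2.66.

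**Figure D1:**
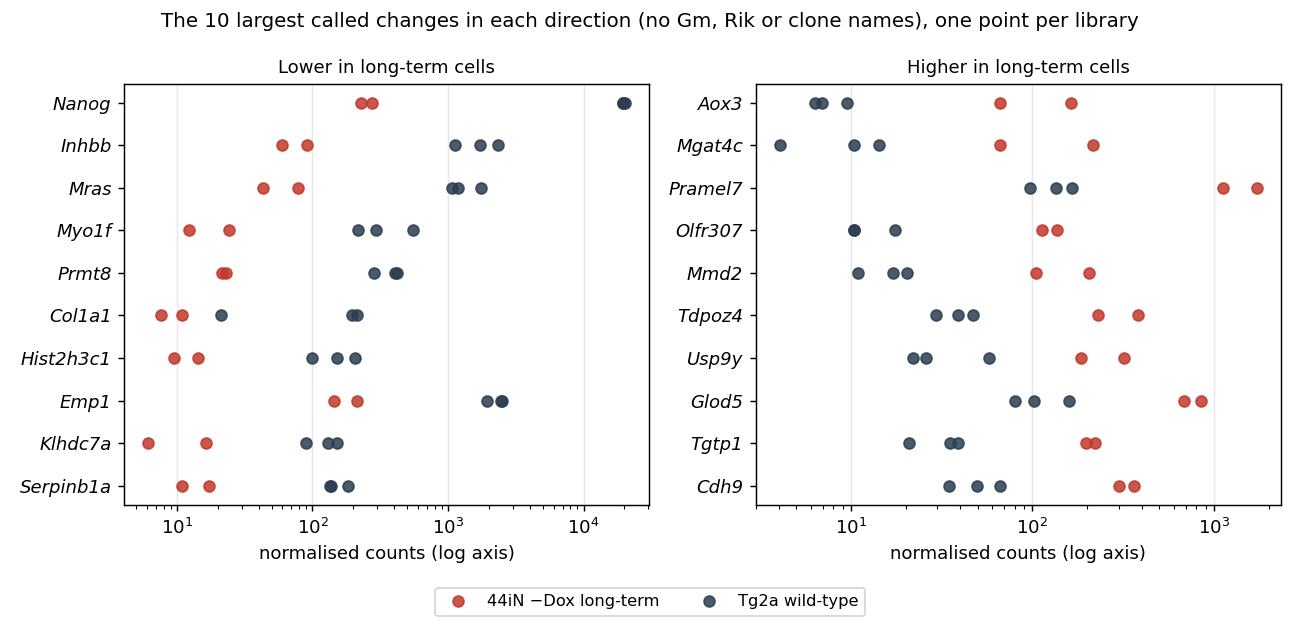
Normalised counts (log axis) of the 10 largest called changes in each direction among genes with a standard symbol (1500017E21Rik, for example, is left out), with 1 point per library, red for long-term 44iN cells without Dox and dark for Tg2a cells. Red and dark points are apart for every gene, and the nearest pair is at Col1a1, where 1 Tg2a library stood at 21.2 against 10.9.

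Across 24 lists of pathway, lineage and cell state genes, 440 distinct members passed the filter on low counts and 94 were called (21.4%, against 8.61% of all tested genes), of which 37 rose and 57 fell. The lists were chosen with results of these data known, and the filter keeps genes that are high in 1 group, so the share is a description. Without long-term replicate 1, long-term replicate 2 or Tg2a replicate 2 the called members numbered 7, 14 and 33.

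The core pluripotency list of 14 genes was all tested, and 2 rose, 2 fell and 10 did not pass the test. The share called was 28.6%, against 8.61% of all tested genes. Esrrb, an orphan nuclear receptor of the self-renewal network, was at 3857 and 4339 normalised counts in long-term cells and at 10651, 10617 and 14626 in Tg2a cells. It fell by 1.62 on the log2 scale (SE 0.19, adjusted p = 0.00489), with no overlap. Lin28a, an RNA-binding repressor of let-7 miRNAs, was at 16972 and 19277 against 9914, 9111 and 7890, and rose by 0.94 (SE 0.16, adjusted p = 0.0164). Mycn rose by 0.92, from 3702, 3422 and 3162 to 5507 and 8197. The members that moved thus went both ways, and the list's median log2 fold change was -0.07 against -0.05 for all tested genes.

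Genes of the naive state were mostly lower. Of 26 table rows for the list, all tested, 12 fell, 1 rose and 13 did not pass, with a median of -0.79. Calls thus made up 50% of the list, against 8.61% of all tested genes. Klf4, a zinc finger factor induced by LIF and Stat3, was at 782 and 850 against 3785, 3705 and 4053, and fell by 2.31 (SE 0.15, adjusted p = 0.000506). Prdm14, a factor that represses FGF signalling and de novo methylation, was at 133 and 132 against 687, 551 and 719, and fell by 2.38 (SE 0.22, adjusted p = 0.00259). In both cases the lowest Tg2a library was over 4 times the highest long-term library. Tet2, which oxidises methylated cytosine, was at 5101 and 3481 against 12221, 8910 and 8894 (log2 fold change -1.30, SE 0.23, adjusted p = 0.0166). Tbx3 fell by 0.97, Tfcp2l1 by 0.87, Nr0b1 by 0.87 and Fgf4, the main FGF of ES cells, by 1.02. Tfcp2l1 kept 10539 and 8075 normalised counts against 16375, 17683 and 14129, a smaller change than that of Klf4. Nr5a2, a nuclear receptor of the same network, was at 1427 and 1455 against 1681, 1696 and 1676 (log2 fold change -0.30, adjusted p = 0.191). Nlrp4f, an oocyte and embryo gene on the list, was the member that rose, by 1.61. Bmp4 and Tdh, also among the 12, lie on a segment of chromosome 14 where Tg2a libraries differed from all others.

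Of 22 members of the LIF signalling list, all tested, none rose and 3 fell (13.6% called, against 8.61% of all tested genes), namely Klf4, Tfcp2l1 and Stat5a. The median was -0.21, and 10 members had an unadjusted p under 0.05. DESeq2 called 1 higher and 5 lower, and edgeR with the GC correction 2 higher and 6 lower. The receptor gene Lifr was at 5839 and 5160 normalised counts against 5257, 4459 and 4154 (log2 fold change 0.17, adjusted p = 0.531). Stat3 was at 1811 and 1902 against 1891, 1950 and 2276 (log2 fold change -0.21, adjusted p = 0.381). Socs3, a direct target and inhibitor of the pathway, was at 1203 and 1443 against 854, 1340 and 1963, and its groups overlapped. SunTag cells in LIF without Dox held more of it, at 2356, 4719 and 4197.

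**Figure D2:**
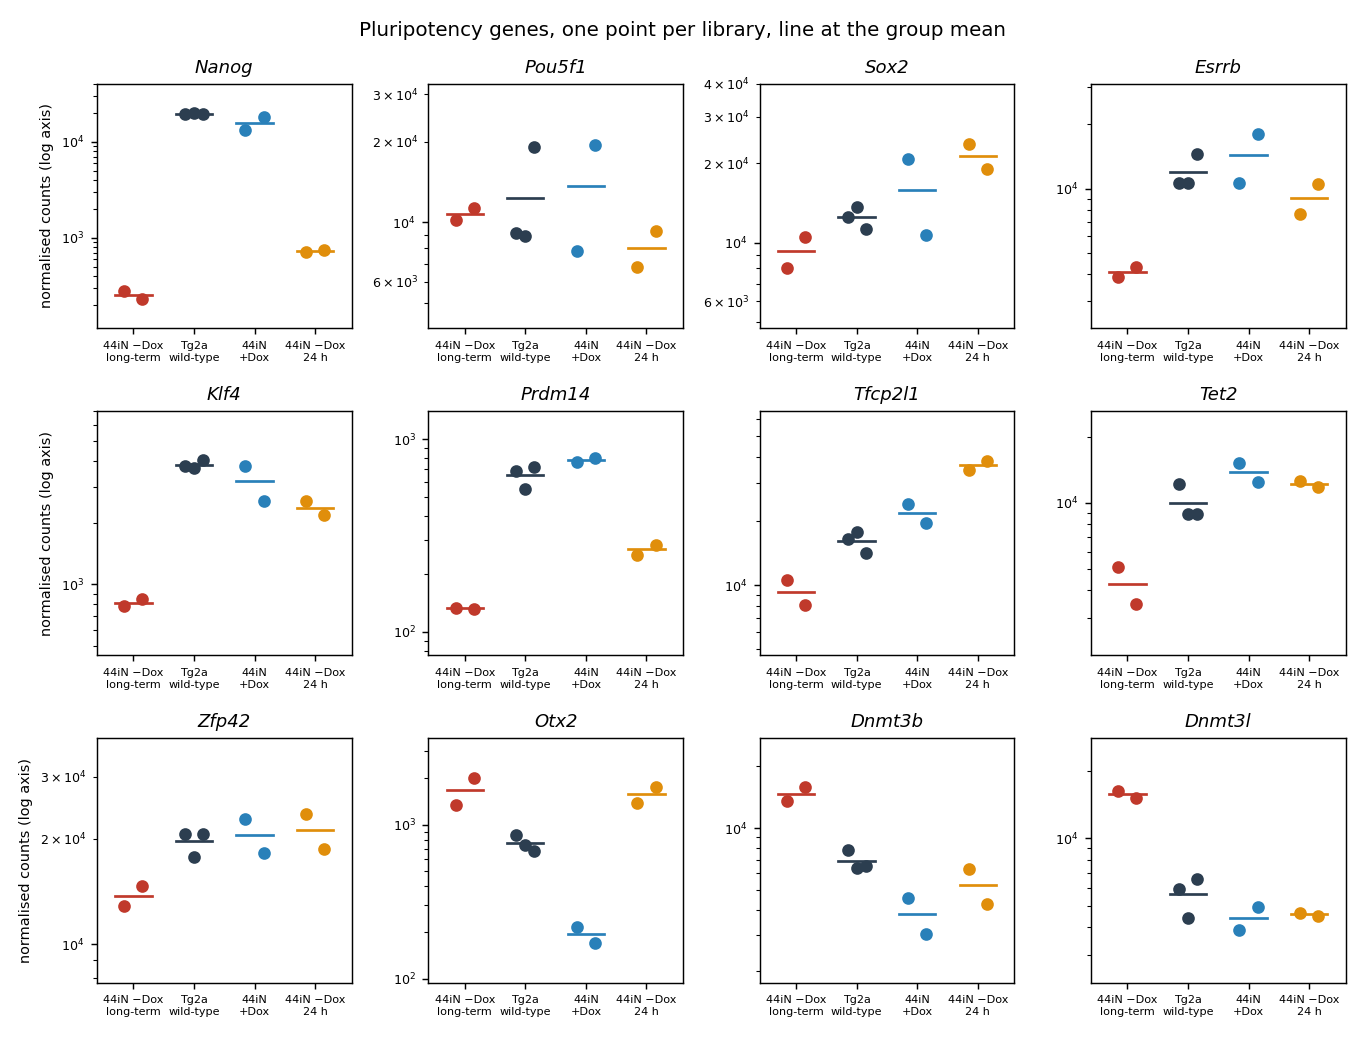
Normalised counts (log axes, a different range in each panel) of 12 pluripotency and formative genes, with 1 point per library and a line at the mean of each of the 4 groups. Long-term cells are lowest for Nanog, Esrrb, Klf4, Prdm14, Tfcp2l1 and Tet2 and highest for Dnmt3b and Dnmt3l, while Pou5f1 overlaps between long-term and Tg2a cells.

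Among genes of the formative and primed state, 19 of 22 table rows passed the filter, 3 rose and 1 fell, with a median of 0.19. Calls made up 21.1% of those tested, against 8.61% of all tested genes. Otx2, a homeobox factor of the epiblast, was at 1336 and 2025 normalised counts in long-term cells against 865, 743 and 672 in Tg2a cells, and rose by 1.07 (SE 0.21, adjusted p = 0.0232). In 44iN cells with Dox it was at 218 and 171, and after 24 h without Dox at 1380 and 1769, so the levels at 24 h and in long-term culture lay in the same range. Pim2, a serine/threonine kinase, was at 2695 and 4284 against 1370, 1303 and 1050 and rose by 1.41. Fgf5, a gene of the post-implantation epiblast, was at 36 and 77.6 against 31.9, 44.6 and 31.3, so its groups overlapped. Sox4 was the member that fell, by 1.09.

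The de novo DNA methyltransferase Dnmt3b was at 13571 and 15853 against 7771, 6403 and 6503, and rose by 1.02 (SE 0.16, adjusted p = 0.0115). Its cofactor Dnmt3l was at 16281 and 15157 against 5902, 4390 and 6555, and rose by 1.41 (SE 0.18, adjusted p = 0.00616). Of 18 genes of DNA methylation and demethylation, all tested, these 2 rose, and Tet2 and Zfp57, a protector of imprints, fell. That was 22.2% called, against 8.61% of all tested genes. Among 11 tested PRC2 genes, the complex that trimethylates H3K27, Jarid2 alone was called (9.09%, against 8.61% of all tested), with a rise of 0.61. The other PRC2 genes did not pass the test. Of the DNA methylation list, the DNA methyltransferase genes Dnmt1 and Dnmt3a did not pass either (log2 fold changes 0.04 and 0.19). DNA methylation itself was not measured in these samples.

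Markers of other cell types were examined next, and for these bulk samples fewer cells of a type and less RNA per cell cannot be told apart. Of 25 rows of the primitive endoderm list (the extra-embryonic lineage that ES cells in serum can enter), 22 were tested, 1 rose and none fell, with a median of 0.19. Calls made up 4.55% of the tested members, against 8.61% of all tested genes. The summed level of the list was 108168 and 72730 normalised counts in long-term libraries and 61760 to 89300 in Tg2a libraries. Pdgfra, a receptor that marks this lineage, was at 3551 and 2258 against 1255, 1015 and 1293, and rose by 1.21 (SE 0.21, adjusted p = 0.0145). Gata6, a factor that defines the lineage, was at 1501 and 942 against 618, 571 and 734 (log2 fold change 0.85, SE 0.22, adjusted p = 0.0501). The groups did not overlap for Gata6, and its p lay at the threshold. Gata4 was at 656 and 481 against 441, 327 and 438, and Sox17 at 212 and 129 against 125, 114 and 133, with neither passing the test. No defining marker of the lineage was at 0 in a long-term or Tg2a library.

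Set against 44iN cells with Dox, the same genes were far higher in long-term cells: 20 of the 22 tested members passed the test as higher, with a median log2 fold change of 3.07, where 6.11% of 15326 tested genes were higher. Gata6 was at 99.1 and 14 normalised counts with Dox, Gata4 at 30.7 and 3.11, Sox17 at 20.8 and 0, and Dab2 at 340 and 65.3. Dab2 was at 6735 and 4488 in long-term cells and at 5888, 3880 and 3902 in Tg2a cells. After 24 h without Dox the members stood close to their levels with Dox (median log2 fold change 0.05), with Gata4 at 28.8 and 11.8 and Dab2 at 538 and 91.7. SunTag cells in LIF without Dox were also lower than long-term cells, in a comparison that called 35.2% of all tested genes. Gata6 was at 169, 199 and 61.2 there (log2 fold change of long-term cells 3.09), and Gata4, Sox17, Sox7, Dab2 and Pdgfra had log2 fold changes of 2.45, 2.37, 3.47, 2.64 and 3.94, all called by edgeR. Of these groups, Tg2a cells were thus closest to long-term cells in primitive endoderm transcripts, and 44iN cells with Dox, at 24 h and SunTag cells held less. The parts of cell composition, G418 selection, Dox itself and sequencing depth in this were not tested.

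**Figure D3:**
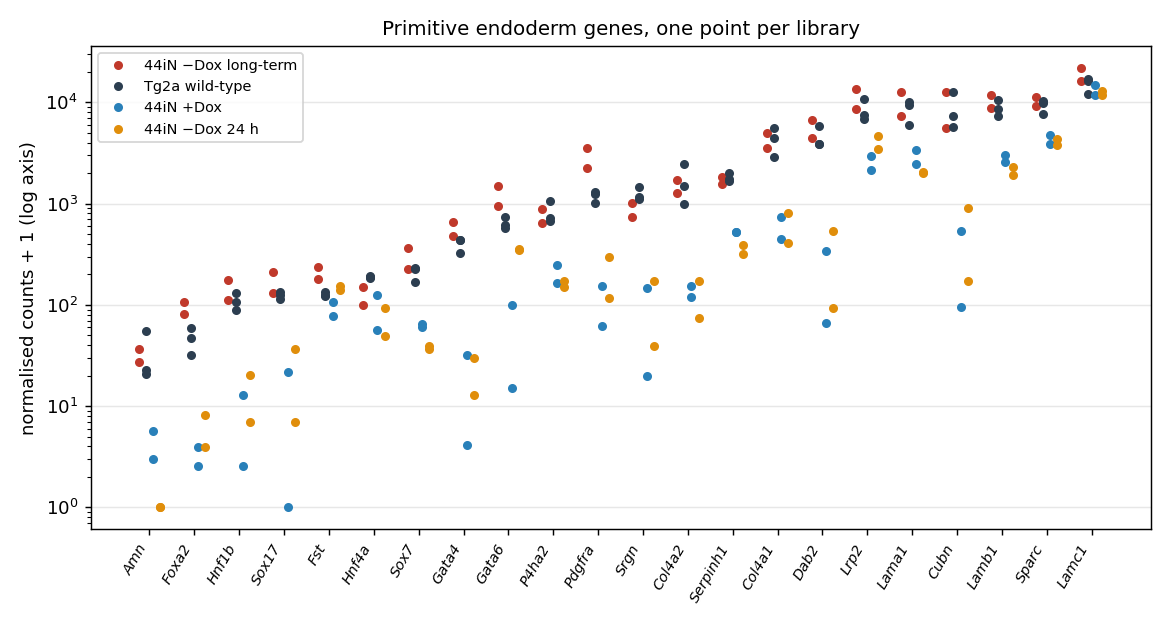
Normalised counts plus 1 (log axis) of the 22 tested primitive endoderm genes, ordered by level, with 1 point per library. Long-term (red) and Tg2a (dark) points lie together for most genes, and 44iN libraries with Dox (blue) and at 24 h (orange) lie below them, as for Gata4 at 30.7 and 3.11 with Dox against 656 and 481 in long-term cells.

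In other lineages the shares called were 10% (mesendoderm), 20% (neural) and 21.4% (trophoblast), against 8.61% of all tested genes. Of 20 mesendoderm and primitive streak rows, 10 were tested and 1 fell. This was T, the Brachyury factor of the streak, at 11 and 5.45 normalised counts against 30.3, 93.2 and 75.5 (log2 fold change -3.05, SE 0.59, adjusted p = 0.0221). Eomes and Mixl1 overlapped between the groups, Eomes at 158 and 115 against 104, 171 and 164. Of 20 neural rows, 10 were tested, 2 fell and 8 did not pass, with a median of -0.85. Ncam1, a neural cell adhesion molecule, was at 111 and 100 against 545, 632 and 659 (log2 fold change -2.61, SE 0.23, adjusted p = 0.00193), and Neurod1, a proneural factor, fell by 2.36. Of 17 trophoblast rows, 14 were tested, 2 fell and 1 rose, with a median of -0.97. Gata3 rose, from 22.3, 24.9 and 34.6 to 124 and 70.8, while Cdx2, which defines that lineage, did not pass the filter at 22.5 and 9.53 against 7.43, 12.7 and 16.1.

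Fibroblast markers, which would mark feeder or differentiated cells, were low in all 5 libraries. Of 12 rows, 7 were tested, all with a negative log2 fold change, and Col1a1 and Col1a2 fell. Their summed level was 385 and 746 normalised counts in long-term libraries and 563, 1720 and 1914 in Tg2a libraries, so Tg2a replicate 1 lay within the long-term range. Dcn was at 3.36 and 0 against 0, 0 and 0.895, and Postn was at 0 in both long-term libraries. For the sums of the neural list the long-term libraries held 7719 and 6934 and the Tg2a libraries 9058 to 11531. The part of such cells in other differences was not tested. Of 22 epithelial and mesenchymal genes tested, Cldn4 fell by 1.40 and the others did not pass (4.55% called, against 8.61% of all tested).

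Some genes of the early embryo were higher in long-term cells. The 2-cell-like list, named for the transient ES cell state that resembles the cleavage embryo, had 16 of 17 rows tested, of which 4 rose, none fell and 15 had a positive log2 fold change. The share called was 25%, against 8.61% of all tested genes. Those that rose were Tdpoz4, Zfp352, Spz1 and Arg2. Tdpoz4, one of the TD and POZ domain genes of the early embryo, was at 382 and 229 normalised counts against 47.3, 38.8 and 29.5 (log2 fold change 2.91, SE 0.34, adjusted p = 0.00489). Zfp352 rose by 1.76 and Arg2, an arginase, by 1.29. Dux, which triggers the state, had a log2 fold change of -0.32 (adjusted p = 0.635), and none of 6 tested Zscan4 genes, its best known markers, was called by edgeR (median 0.19), nor by DESeq2, and 1 had an unadjusted p under 0.05. The 4 calls thus did not include Dux or a Zscan4 gene. The list's median log2 fold change was 0.42, against -0.05 for all tested genes.

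The neighbourhood of Tdpoz4 was looked at after its value was seen. Of 12 tested Tdpoz genes and neighbouring copies at chr3:92877408-94070706, 11 rose, with a median log2 fold change of 2.91. Of all tested genes, 3.35% rose. Several are near-identical copies, and Tdpoz5 and Gm10697 held the same values in every library, so reads are split among copies and single members are uncertain. All 3 Trim43 genes, a family of the preimplantation embryo on chromosome 9, rose as well, among them Trim43a at 166 and 109 against 33.5, 27.8 and 24.5. Pramel6, next to Pramel7 on chromosome 2, was at 857 and 406 against 87.1, 85.7 and 119 (log2 fold change 2.62, SE 0.34, adjusted p = 0.00616). In 44iN cells with Dox, Pramel6 already stood at 466 and 404, while Pramel7 stood at 409 and 176 and Tdpoz4 at 77.3 and 43.5. For Pramel6 the long-term libraries thus held 1 value above and 1 close to those with Dox.

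Promoters of genes that rose held fewer CG dinucleotides, the sites of DNA methylation in mammals, than those of all tested genes. This is a description of genes picked by their calls, with no test. Of the 501 genes that rose, 293 had a RefSeq window of 300 bases (250 before to 50 after the start, GRCm38.p6), with a median of 11 CG, against 20 in 507 windows of genes that fell and 21 in 9892 windows of all tested genes. Windows with fewer than 5 CG made up 28.3% of those that rose, 8.88% of those that fell and 7.71% of all tested. Genes with such windows also had lower levels, with a median of 82.7 against 561 normalised counts. At a mean of at least 100 normalised counts, 9.62% of genes with fewer than 5 CG rose, against 2.41% with 5 or more. With the GC correction, these shares at the same levels were 17.6% and 11.9%, so the difference was smaller. The shares that fell at these levels were 5.49% and 4.31%, and with the GC correction 12.4% and 10.6%. Below a mean of 100 normalised counts, 6.27% and 7.72% fell. Windows of 3 genes that rose and of 2 that fell are shown, with CG (which reads the same on both strands) in capitals. They are far from the medians of 11 and 20 CG and are not typical of their groups. They lie at chr2:87506315-87506614 (plus strand) for Pramel6 with 3 CG, chr2:87492369-87492668 (minus) for Pramel7 with 1, chr3:93796148-93796447 (plus) for Tdpoz4 with 0, chr4:55532426-55532725 (minus) for Klf4 with 40 and chr9:99436663-99436962 (minus) for Mras with 36.
Pramel6: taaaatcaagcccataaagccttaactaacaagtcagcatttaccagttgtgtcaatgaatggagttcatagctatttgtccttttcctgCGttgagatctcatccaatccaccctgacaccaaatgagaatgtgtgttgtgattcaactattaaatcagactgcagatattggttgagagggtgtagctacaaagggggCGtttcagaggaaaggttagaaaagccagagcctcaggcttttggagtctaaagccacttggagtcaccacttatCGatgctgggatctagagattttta
Pramel7: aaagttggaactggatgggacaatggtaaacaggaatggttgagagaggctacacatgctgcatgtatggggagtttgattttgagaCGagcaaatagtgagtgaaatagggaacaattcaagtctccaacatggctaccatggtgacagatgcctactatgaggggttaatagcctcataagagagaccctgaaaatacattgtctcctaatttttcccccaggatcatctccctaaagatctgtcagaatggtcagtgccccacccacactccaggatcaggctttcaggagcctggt
Tdpoz4: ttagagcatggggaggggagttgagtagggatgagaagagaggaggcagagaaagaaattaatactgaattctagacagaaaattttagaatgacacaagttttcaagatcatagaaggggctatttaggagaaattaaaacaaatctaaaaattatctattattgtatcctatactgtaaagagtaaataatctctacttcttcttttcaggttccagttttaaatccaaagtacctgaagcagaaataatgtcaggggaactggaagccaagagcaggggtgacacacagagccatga
Klf4: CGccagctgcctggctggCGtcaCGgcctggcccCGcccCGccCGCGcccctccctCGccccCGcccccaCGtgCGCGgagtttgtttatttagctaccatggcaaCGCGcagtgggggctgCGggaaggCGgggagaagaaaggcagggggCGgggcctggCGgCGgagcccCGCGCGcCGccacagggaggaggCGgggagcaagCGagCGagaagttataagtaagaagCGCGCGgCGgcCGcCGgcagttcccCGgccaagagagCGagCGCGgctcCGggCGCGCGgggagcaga
Mras: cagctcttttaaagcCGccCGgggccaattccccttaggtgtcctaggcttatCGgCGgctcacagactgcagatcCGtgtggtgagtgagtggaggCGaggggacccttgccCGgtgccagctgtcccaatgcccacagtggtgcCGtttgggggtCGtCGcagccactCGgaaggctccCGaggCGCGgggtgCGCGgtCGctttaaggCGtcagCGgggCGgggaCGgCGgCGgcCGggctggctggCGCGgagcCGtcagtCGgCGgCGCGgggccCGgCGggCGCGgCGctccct

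Germline genes as a list did not follow Pramel7 and Tdpoz4. Of 40 rows, 37 were tested, 1 rose and 7 fell (21.6% called, against 8.61% of all tested genes), with a median of -0.26. Tex19.1, a methylation-sensitive gene of germ cells and placenta, was the one that rose, from 1247, 1018 and 1596 to 3428 and 2852. Dazl, a translational regulator of germ cells, was at 380 and 285 normalised counts against 862, 989 and 949, and fell by 1.56 (SE 0.20, adjusted p = 0.00616). Piwil1, Piwil2 and Piwil4, which encode PIWI proteins of the piRNA pathway, fell by 1.40, 1.23 and 2.00. Piwil2 is on the segment of chromosome 14 where Tg2a libraries stood apart, and the others are not.

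Imprinted genes, which are expressed from 1 parental allele, changed in both directions and by large amounts. Of 39 rows, 35 were tested, 8 rose and 4 fell (34.3% called, against 8.61% of all tested genes). Grb10, an adaptor that restrains growth factor signalling, was at 1067 and 1227 normalised counts in long-term cells against 10962, 11009 and 10514, and fell by 3.32 (SE 0.17, adjusted p = 0.000188). Mest was at 574 and 339 against 3478, 3638 and 3566, and fell by 3.04 (SE 0.24, adjusted p = 0.00134). Plagl1, a zinc finger factor of the imprinted gene network, fell by 3.25. Peg10, a gene derived from a retrotransposon, was at 69332 and 66681 against 18607, 25621 and 21779, and rose by 1.55 (SE 0.18, adjusted p = 0.00504). Snrpn rose by 1.79 and Magel2, also on chromosome 7, by 2.07. The noncoding RNA H19 overlapped between the groups, at 1674 and 1118 against 737, 1499 and 2357.

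The 44iN line with its transgene on shared some of these levels and not others. Grb10 was at 2343 and 1538 with Dox and at 1260 and 929 at 24 h, and Mest at 1311 and 746 with Dox, all below the Tg2a libraries. With Dox against Tg2a, 723 of 15326 tested genes were called (4.72%), 245 higher (1.6%) and 478 lower (3.12%), and Grb10 and Mest were among them (log2 fold changes -2.54 and -1.85). Plagl1 in contrast was at 480 and 250 with Dox, beside 254, 575 and 467 in Tg2a cells. Snrpn was at 7374 and 5759 with Dox, between the long-term and the Tg2a levels.

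Growth factor pathways held calls in both directions. In the Nodal, BMP and TGF-beta pathway, 34 of 36 members were tested, 6 fell and 1 rose, with a median of -0.40. Calls made up 20.6% of those tested, against 8.61% of all tested genes. By role, the ligand genes Inhbb and Bmp4, the antagonist Nog, the receptor Acvr1b, the transducer Smad3 and the inhibitor Smad7 fell, and the BMP target Id1 rose by 1.41. Bmp4 was at 111 and 54.5 normalised counts against 287, 335 and 574, and is on the chromosome 14 segment. Smad7, a direct target of the pathway, was at 573 and 597 against 1068, 1630 and 2186. Lefty1 and Lefty2, Nodal inhibitors and targets, were at 636 and 696 against 377, 417 and 411 and at 1958 and 1679 against 1021, 1281 and 1186, and neither passed the test (adjusted p = 0.064 and 0.0675). In the Wnt pathway, 32 of 37 rows were tested, 5 fell and 2 rose (21.9% called, against 8.61% of all tested). Sfrp1, a secreted antagonist, was at 315 and 230 against 1480, 1407 and 1471 (log2 fold change -2.49, SE 0.19, adjusted p = 0.00134). The receptor gene Fzd7 rose by 1.04 while Fzd5 fell by 0.87, and the effector Tcf7l2 fell by 1.50.

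In the FGF and ERK pathway, 29 of 31 rows were tested, 4 rose and 3 fell (24.1% called, against 8.61% of all tested). Among ligands, Fgf17 (on the chromosome 14 segment) and Fgf4 fell, by 2.78 and 1.02. The receptor gene Fgfr2 was at 1346 and 1308 normalised counts against 601, 579 and 595, and rose by 1.09 (SE 0.15, adjusted p = 0.00749). Among outputs, Etv1 rose by 1.29, Egr1 by 1.08 and the phosphatase Dusp4 by 0.76, while the inhibitor Spred1 fell by 0.89.

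Cell cycle genes differed in their G1 regulators. Of 25 tested members, 4 rose and 5 fell (36% called, against 8.61% of all tested genes), with a median of 0.19. Ccnd2 was at 165 and 148 normalised counts against 646, 557 and 575, and fell by 1.99 (SE 0.21, adjusted p = 0.00362). Ccnd1 was at 1293 and 1252 against 3228, 3102 and 2911, and fell by 1.35 (SE 0.14, adjusted p = 0.00337). Their kinase partner Cdk6 fell by 0.98, and Rb1 and Rbl2, substrates that restrain S phase entry, fell by 1.71 and 0.82. Rb1 is on the chromosome 14 segment. Ccne1, the cyclin of the G1/S transition, was at 10055 and 9887 against 5401, 5221 and 5432, and rose by 0.82 (SE 0.13, adjusted p = 0.0124). Myc rose by 0.88 and Cdk1 by 0.61. D-type cyclins and cyclin E thus moved in opposite directions, with no overlap for any of the 3.

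Histone transcripts were examined after several appeared among the lower genes. Of the clustered histone genes, 11 passed the filter, and all 11 fell, with a median log2 fold change of -2.31, where 5.26% of all tested genes fell. With the GC correction 10 were called lower. Hist2h3c1 was at 9.59 and 14.3 normalised counts against 151, 207 and 99.9, and Hist1h2bc at 41.2 and 48.4 against 184, 266 and 178. In 44iN cells with Dox, Hist2h3c1 was at 224 and 199, and at 24 h at 286 and 308. The kit selected polyadenylated RNA, and most histone mRNAs carry no poly(A) tail, so these values cover the polyadenylated part alone.

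Among metabolic genes, 22 of 23 glycolysis and pyruvate genes were tested, 4 fell and none rose (18.2% called, against 8.61% of all tested). Slc2a3, a glucose transporter, was at 20805 and 19292 normalised counts against 37365, 47367 and 42530 (log2 fold change -1.16, SE 0.18, adjusted p = 0.0106), and Hk1, Pfkp and Ldhb fell by 1.14, 0.91 and 0.92. With Dox, Slc2a3 was at 18151 and 17153, like the long-term libraries. None of 20 stress response genes tested was called by edgeR, where 7 had an unadjusted p under 0.05. DESeq2 called 3 of them, and edgeR with the GC correction called 6. Smarcd3, a subunit of BAF chromatin remodellers typical of heart and neurons, was at 14.4 and 12.9 against 102, 116 and 213. It fell by 3.46 and was the single call among 16 BAF genes (6.25%, against 8.61% of all tested). Of 11 tested interferon and MHC class I genes, 2 rose (Ifit1 and Bst2) and 3 fell (Oas1a, Ifitm1 and Ifitm2). That was 45.5% called, against 8.61% of all tested genes. Of 7 Y-linked genes 3 rose (42.9% called), led by Usp9y at 318 and 185 against 57.9, 22 and 25.9. In all 5 Akr1c genes, aldo-keto reductases examined after their values were seen, transcripts rose, with a median of 2.13, and near-identical sequences may share reads. Of all tested genes, 3.35% rose.

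**Figure D4:**
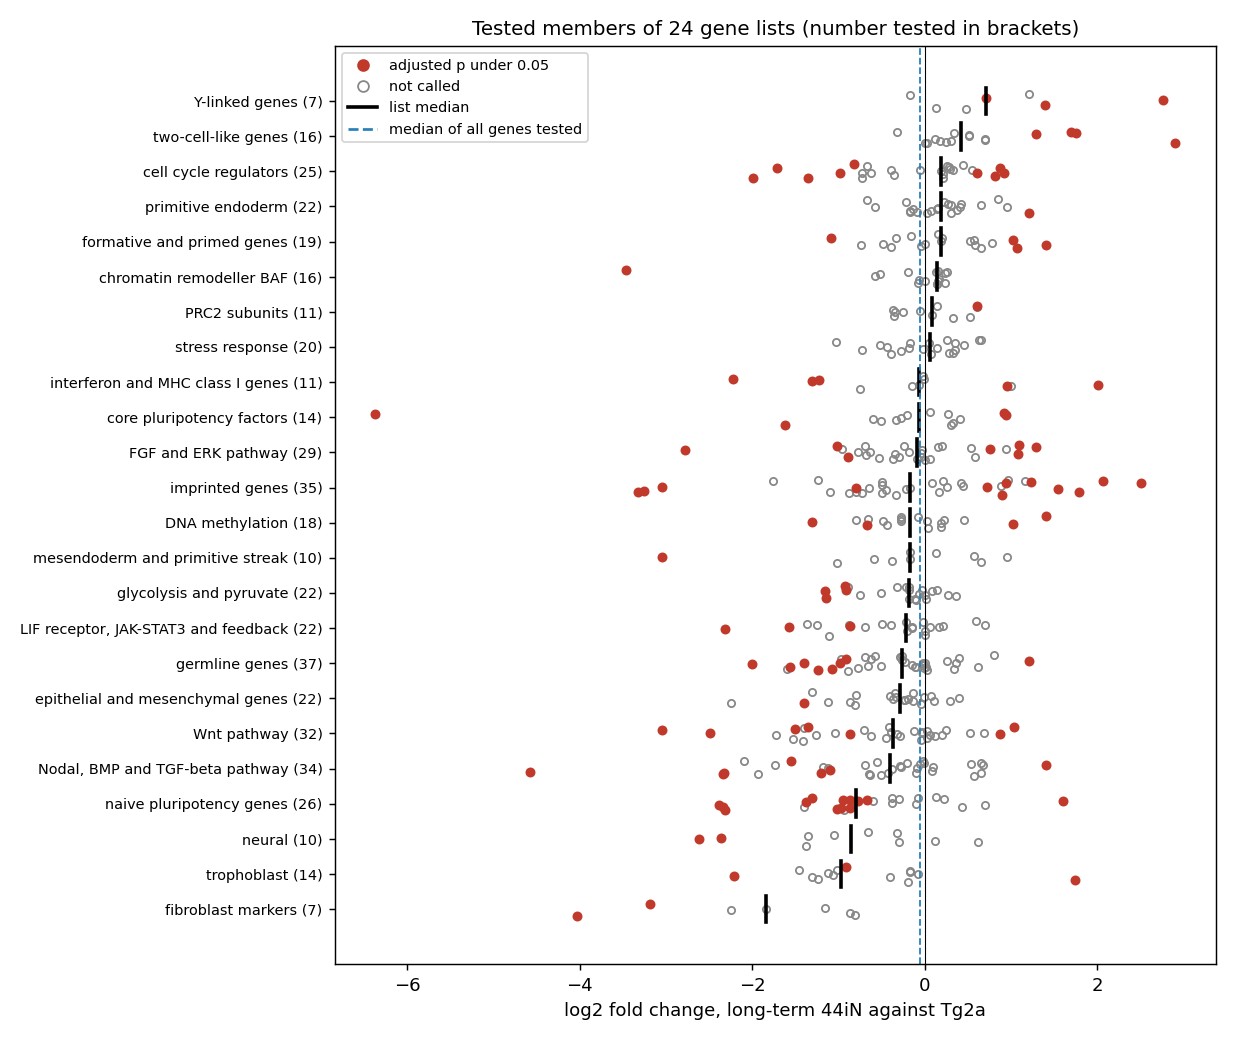
Log2 fold change (long-term 44iN against Tg2a cells) of the tested members of 24 lists, with 1 point per gene, filled red where the adjusted p was under 0.05, a bar at each list's median and a dashed line at the median of all tested genes (-0.05). The naive list has its median at -0.79 with 12 lower calls, and the primitive endoderm list its median at 0.19 with 1 call.

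Chromosome 14 stood apart from the rest of the genome. Its median log2 fold change was -0.36, and 17.7% of its tested genes were called lower, against 5.26% of all. The difference lay in a segment from 45 to 80 Mb of mm9 that was set after the values were seen: of 271 tested genes there, 77 fell (28.4%) and 4 rose, with a median of -0.63. The other 253 tested genes of the chromosome had a median of -0.04, with 16 lower and 8 higher. In 44iN cells with Dox against Tg2a cells, the median of the segment was -0.59, and in long-term cells against those with Dox it was 0.01. After GC correction, all 32 other libraries of the tables had a median below that of the Tg2a libraries there, by 0.32 to 0.66 on the log2 scale. These libraries included 44iN cells with and without Nanog and SunTag cells, while each Tg2a library lay between -0.11 and 0.14 of the other Tg2a libraries. Loxl2, a lysyl oxidase on the segment that was named after its values were seen, was at 144 and 107 in long-term cells, 104 and 63.8 with Dox and 1018, 1053 and 1120 in Tg2a cells. Its log2 fold change in long-term cells was -3.28 against SunTag cells and -3.16 against Tg2a cells. The low level of Loxl2 was thus not shared by SunTag cells, unlike the lower median of the segment. Of 9 tested list members on the segment, Bmp4, Tdh, Piwil2, Fgf17 and Rb1 fell, and Otx2, Sall2, Gata4 and Sox7 did not fall. Against SunTag cells, Bmp4 and Fgf17 were also called lower in long-term cells (log2 fold changes -3.00 and -3.74). Piwil2 (-1.02) and Rb1 lost their call there. Outside the segment 497 of 14666 genes rose and 708 fell.

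**Figure D5:**
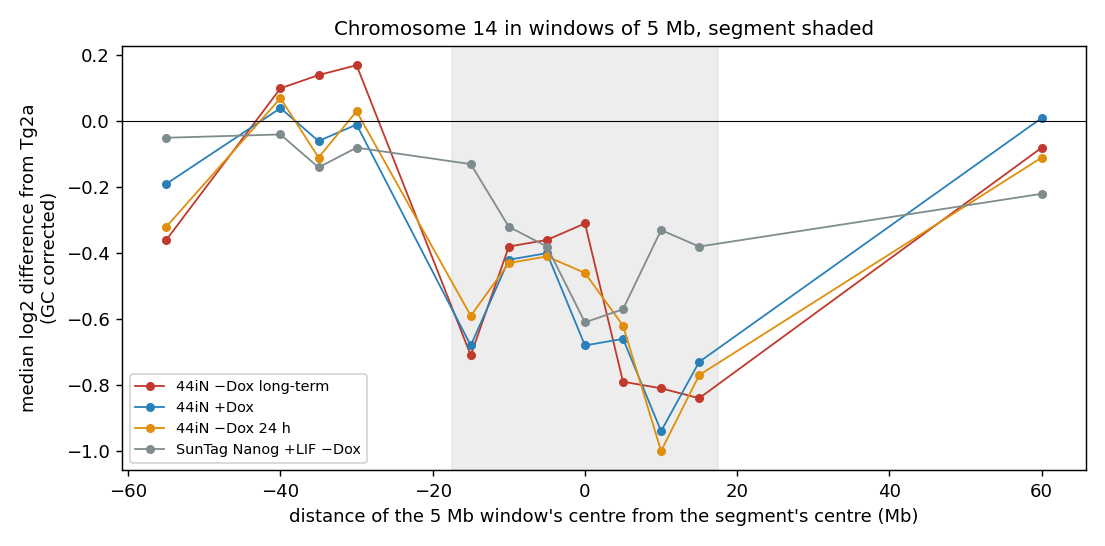
Median log2 difference from the Tg2a mean after GC correction (vertical axis) in 5 Mb windows of chromosome 14 with at least 20 tested genes, against distance from the segment's centre in Mb, for 4 groups of libraries. Inside the shaded segment all 4 lines lie below 0, and the long-term cells reach -0.84 in its last window.

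A smaller run on chromosome 1 showed another pattern, and was also chosen after its values were seen. Of 21 tested genes at chr1:134010127-135975697, 11 fell and none rose, with a median log2 fold change of -1.25. Of all tested genes, 5.26% fell and 3.35% rose. Here the median of long-term cells against those with Dox was -1.29, that of 24 h against Dox -0.78, and that of cells with Dox against Tg2a 0.21. Rbbp5, a subunit of H3K4 methyltransferase complexes, was at 2171 and 2269 normalised counts against 4641, 4399 and 4002, and Pik3c2b, a phosphoinositide kinase, at 107 and 87.9 against 303, 405 and 447. Mdm4, an inhibitor of p53, was at 6369 and 5224 against 9885, 9473 and 6216, and its difference of -0.64 did not pass the test.

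The same line with its transgene on gave a comparison within 1 line. The long-term cells were also under G418 selection and without Dox, and their libraries were deeper. The long-term libraries held 47233398 and 67060119 estimated counts, against 19260874 and 37974444 with Dox. Loss of Nanog and these differences cannot be told apart here. Long-term cells differed from 44iN cells with Dox in 1858 of 15326 tested genes (12.1%), of which 937 were higher (6.11%) and 921 lower (6.01%). As both comparisons use the long-term libraries, their values are given side by side only. Without long-term replicate 1 or 2 the calls numbered 413 and 577. Klf4 was at 3803 and 2566 with Dox (long-term against Dox -1.96, adjusted p = 0.00127), Esrrb at 10695 and 17962 (-1.80, adjusted p = 0.00606) and Prdm14 at 764 and 802 (-2.56, adjusted p = 0.000407). Inhbb was at 2953 and 2341 and Ccnd1 at 3246 and 3042 with Dox. Between cells with Dox and Tg2a cells none of these 5 passed the test (adjusted p = 0.301 to 0.936). Emp1 and Mras were higher with Dox than in any long-term or Tg2a library, Emp1 at 4492 and 5759 and Mras at 2072 and 2950. In the formative list 10 members were higher and 1 lower in long-term cells than with Dox, with a median of 1.20.

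The loss of Nanog for 24 h was then set beside the long-term difference, in libraries that the long-term comparison did not use. Between 24 h and Dox, 123 of 15326 tested genes were called (0.803%), 29 higher (0.189%) and 94 lower (0.613%). Without 24 h replicate 1, 24 h replicate 2 or Dox replicate 2 the calls numbered 7, 4 and 56. Of the 501 genes higher in long-term cells, 412 were on the higher side at 24 h (82.2%, median log2 fold change 0.43), where 49.1% of all tested genes were. Of the 785 lower genes, 566 were on the lower side (72.1%, median -0.41). At 24 h, 10 of the former were called higher and 51 of the latter called lower, and 1 of each was called in the other direction. Prdm14 was at 252 and 284 normalised counts at 24 h (log2 fold change from Dox -1.61, adjusted p = 0.0141), and Ccnd2 at 238 and 222 (-2.01, adjusted p = 0.00701), both between their levels with Dox and in the long term. Klf4 was at 2551 and 2174 (-0.49, adjusted p = 0.437), and Inhbb at 1824 and 1704 (-0.64, adjusted p = 0.539), against 782 and 850 and 91.6 and 59.9 in long-term cells. Tfcp2l1 was at 34842 and 38017 at 24 h, against 23934 and 19646 with Dox (0.68, adjusted p = 0.257), whereas the long-term libraries held the lowest levels of the 4 groups.

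The long-term difference (against Tg2a) and the 24 h effect (against Dox) were tested against each other in the 9 libraries. The difference passed in 5 of 15326 genes (0.0326%), with 1500017E21Rik and Rapgef4 on the higher side (0.013%) and Mobp, Ly75 and Inhbb on the lower (0.0196%). Inhbb fell by 4.57 in the long term, and the difference between the effects was -3.91 (SE 0.46, adjusted p = 0.0445). For Ly75, an endocytic receptor, the long-term libraries held 1352 and 1218 against 3524, 3362 and 3116 in Tg2a cells, while the 24 h libraries held 4965 and 6605 against 2677 and 3239 with Dox. DESeq2 called 290 genes in this test and edgeR with the GC correction 217, so the count depends on the tool. In simulated data with 200 genes changed by 1 on the log2 scale, edgeR recovered 0% in this test. Of DESeq2's calls there, 56.7% were false. Few calls therefore do not show that the 2 effects are alike. Leaving out single libraries gave 0 to 10 calls, with 0 when 24 h replicate 2 was left out.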

How the data were processed

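RNA was extracted with Trizol, and stranded libraries of polyadenylated RNA were read as single 65-base ends. Base calling with CASAVA 1.8, mapping to mm9 by STAR and quantification by RSEM gave the estimated counts, deposited by the authors as whole numbers. In the other table the authors divided each count by its library's DESeq2 size factor over 35 libraries, a signal called the normalised count here. Of 37620 genes, 37205 (98.9%) were matched by identifier to GENCODE vM1 for coordinates. Promoter windows came from RefSeq (GRCm38.p6), matched by symbol.

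A gene was tested if all libraries of 1 group or more reached a normalised count of 10. Tests used the estimated counts and edgeR 4.0.16 (R 4.3.3), with TMM normalisation and the quasi-likelihood test, with Benjamini-Hochberg adjustment over all tested genes. The 5 libraries were fitted alone. The comparisons with 44iN cells with Dox and at 24 h used 9 libraries with 1 term per group. Standard errors are those of log2 fold changes. Each log2 fold change is long-term over control unless said otherwise. DESeq2 1.42.0, other filters and normalisations, a replicate block, left-out libraries, SunTag cells as the control and a correction for exon GC content (a lowess trend, chosen after seeing the data) were alternatives. Scripts were tested on simulated data, with 200 genes changed by 1 on the log2 scale. For long-term against Tg2a cells, edgeR recovered 29% of them, with 13.4% of its calls false, and DESeq2 57%, with 28.7% false. For long-term cells against Dox and for the difference of effects, edgeR recovered 0%. DESeq2 recovered 33.5% and 6.5% there, with 28.7% and 56.7% of its calls false. Summaries used numpy 2.4.6, pandas 2.3.3 and scipy 1.17.1 (Python 3.11.15).

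Genes named were Nanog, the called genes with the 10 largest rises and the 10 largest falls whose higher group averaged 100 normalised counts or more, whose groups did not overlap and whose symbol was standard, and members of 24 lists, by largest change or because they define the list. Members and lists were chosen with earlier results of these data known. No library was a duplicate of another, as replicate counts differed by more than sampling noise (chi-square per gene 33.9 to 229). Beyond these 9 libraries, 3 SunTag libraries served as another control and the other libraries entered the chromosome 14 medians alone. ChIP-seq and ATAC-seq were not analysed here.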

Additional observations from a re-analysis of the deposited data

Results flagged for a closer look

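A test of the difference between the long-term difference (against Tg2a cells) and the effect of 24 h without Dox (against cells with Dox) passed for 5 genes in edgeR, all values on the log2 scale. Inhbb differed by -3.91 (SE 0.46, adjusted p = 0.0445). Ly75 differed by -2.34 (SE 0.26, adjusted p = 0.0412), being lower in long-term cells than in Tg2a cells and at 24 h higher than with Dox. Mobp, a myelin-associated protein, differed by -3.82 (SE 0.43, adjusted p = 0.0412), with 39.3 and 44.3 normalised counts in long-term cells, 155, 144 and 157 in Tg2a cells, 55.5 and 38.9 with Dox and 216 and 154 at 24 h. Rapgef4, an exchange factor activated by cAMP, differed by 6.18 (SE 0.63, adjusted p = 0.0357), with 225 and 138 in long-term cells, 52, 27.2 and 28.6 in Tg2a cells, 750 and 428 with Dox and 40.8 and 41.4 at 24 h.

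1500017E21Rik, a noncoding locus at chr19:36688542-36780131 of mm9, differed by 10.16 (SE 0.72, adjusted p = 0.0036). It was at 284 and 330 normalised counts in long-term cells, 534 and 364 with Dox and 626 and 429 at 24 h, and 1 estimated count was read over the 3 Tg2a libraries against 1078 over the long-term ones. The ratio scaled by depth was 2112, with an exact 95% interval of 378 to 83489 that covers counting error only. The fitted change depends on the prior count. All 6 libraries of 44iN cells, with or without Dox, held 284 or more normalised counts of this transcript.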

How the results depend on the processing

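The number of genes called between long-term and Tg2a cells was 1286, and 803 with 9 libraries fitted together, 2294 with DESeq2, 3397 with the GC correction, 5344 against SunTag cells and 4840 with a replicate block. Leaving out 1 library gave 19 to 2629 calls: 19 and 78 without the first and second long-term library, each of which leaves a lone sample assumed to vary like the other group, 273 without Tg2a replicate 2 and 2629 without replicate 3. Against 44iN cells with Dox the GC correction gave 4135 calls in place of 1858, and leaving out a library 413 to 2029. For the difference from the 24 h effect, 5 calls became 290 with DESeq2, 217 with the GC correction, 74 with no filter and 0 to 10 without 1 library, and 1530 genes had an unadjusted p under 0.05. The 24 h effect had 123 calls, 450 with DESeq2, 361 with the GC correction, 223 with no filter and 4 to 180 without 1 library. Called list members, 94 in all, numbered 160 with the GC correction, 214 against SunTag cells, 204 with the replicate block and 7 to 133 without 1 library. The median of chromosome 14 was -0.36, from -0.43 to -0.33 without 1 library, and 0.05 against SunTag cells. The cause of these changes was not tested. Replicate numbers were shared by 2 samples of each group. Their deviations correlated at 0.19 and 0.09 between long-term and Tg2a libraries, so they were not taken as pairs. Between 24 h and Dox libraries of the same number the correlation was 0.46, and the main fit did not pair these either. The replicate block called 2531 genes against cells with Dox, 7 for the difference and 166 for the 24 h effect.

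Of 134 named and tested genes, 109 were called. Against SunTag cells 3 called genes reversed, Col1a2 to 0.43, Rbl2 to 0.10 and Spred1 to 0.01. Genes not called reversed there too: Dux to 1.16, Mdm4 to 1.00, Sall2 to 0.74, Eomes to 0.10, H19 to 0.08, Sall4 to -0.03 and Dnmt1 to -0.49. With the GC correction H19 turned to 0.07 and Socs3 to 0.21. With the replicate block H19 turned to 0.29, Socs3 to 0.21, Pou5f1 to 0.16 and Mixl1 to -0.01. Leaving out 1 library turned the sign of 11 genes that were not called, with values from -0.57 to 0.23 for H19, -0.42 to 0.18 for Socs3, -0.48 to 0.16 for Pou5f1, -0.15 to 0.82 for Mixl1, -0.84 to 0.29 for Sall2, -0.11 to 0.46 for Dab2, -0.04 to 0.66 for Sox17, -0.97 to 0.06 for Dux, -0.44 to 0.01 for Eomes, -0.05 to 0.15 for Dnmt1 and -0.10 to 1.03 for Fgf5. The signs of Pou5f1, Socs3 and H19 depended on Tg2a replicate 3. Of the called genes, 98 lost their call without the first long-term library, 83 without the second, 51 without Tg2a replicate 2 and none without Tg2a replicate 3.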

Other observations

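Outside the lists, the chromosome 3 and chromosome 9 families of the early embryo had positive medians also between 44iN cells with Dox and Tg2a cells: the Tdpoz genes and their neighbours at 0.96 and the Trim43 genes at 1.50, beside 2.91 and 2.75 for long-term against Tg2a cells. Their medians at 24 h without Dox were 0.71 and 1.47. For the 11 histone genes the median was 0.38 with Dox against Tg2a, 0.33 at 24 h against Dox and -2.47 in long-term cells against Dox, so the low levels were those of the long-term libraries. Of 16 tested mitochondrial transcripts, mt-Atp8 fell, from 19518, 37711 and 34070 normalised counts to 11396 and 9295, and mt-Tl1, a tRNA, rose. Each direction thus made up 6.25%, where 5.26% of all tested genes fell and 3.35% rose.

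SunTag cells in LIF without Dox, which express Nanog from the endogenous gene, gave another set of values for the named genes. Against their 3 libraries the log2 fold change of long-term cells was -2.30 for Klf4, -2.19 for Esrrb, -2.73 for Prdm14, -5.58 for Inhbb, 1.09 for Otx2, 1.87 for Dnmt3b and -2.84 for Grb10, all called by edgeR. That comparison called 35.2% of 15163 tested genes, so a call there is common. Of the called genes named, 16 lost their call against SunTag cells, among them Ccnd2 at -0.84, Tet2 at -0.52, Slc2a3 at -0.48, Tfcp2l1 and Rb1 at -0.24, Myc at 0.28 and Egr1 at 0.01. Of 25 named genes that were not called against Tg2a cells, 12 were called here, namely Pou5f1 at -1.62, Socs3 at -1.53, Zfp42 at -0.64, Fgf5 at 3.90, Lefty1 at 1.95, Lefty2 at 1.99, Nodal at -1.11 and the primitive endoderm genes Gata6, Gata4, Sox17, Sox7 and Dab2. As the long-term libraries enter both comparisons, the values are not independent of those against Tg2a cells.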
